A study of Mus musculus with 9 samples.

Results

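The Myc family and its partners and antagonists were followed by their transcripts across 3 states of mouse epiblast-like cells. The group comprises Myc, Mycn and Mycl, which encode the MYC transcription factors, Max, which encodes their obligate partner, and Mxd1, Mxd3, Mxd4, Mxi1 and Mnt, which encode proteins that compete with MYC for MAX. Members were taken by their gene symbols, and all 9 were present among the 23453 symbols of the count table. Bulk RNA-seq was performed on 9 libraries, 3 per state. EpiLCs were derived from naive ESCs in N2B27 with 1% KSR (knockout serum replacement), FGF2 and Activin A, and resemble the early post-implantation epiblast. aEpiLCs were EpiLCs kept for a further 24 h in N2B27 basal medium, to which the methods add the same KSR, as a model of the anterior epiblast. pEpiLCs were EpiLCs kept for a further 24 h with Activin and CHIR99021, an agonist of Wnt/β-catenin signalling, as a model of the posterior epiblast. The study calls the sequenced aEpiLCs and pEpiLCs wild type and names no genotype for the EpiLC libraries. All states share an origin in cultured ESCs rather than in embryos. The RNA comes from whole cultures, and neither the parental ESC line of these libraries nor the origin of the replicates in separate cultures is given in the labels, so that p-values measure only the spread between these samples.

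MYC proteins dimerise with MAX through a basic helix-loop-helix leucine zipper, bind the E-box CACGTG and activate genes of ribosome biogenesis, nucleotide and polyamine synthesis and cell cycle entry. MXD, MXI1 and MNT proteins also dimerise with MAX and bind the E-box, but recruit SIN3 and histone deacetylases to repress transcription. Myc is a known target of Wnt/β-catenin signalling in several tissues, Mycn is the member best known in the early embryo and in neural progenitors, and loss of MYC activity places ESCs in a dormant state.

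Promoter sequence was examined because Wnt/β-catenin signalling acts through TCF/LEF factors and MYC and its antagonists through the E-box. RefSeq windows on GRCm38.p6, from 250 bases before to 50 bases after each transcription start, were found for 8 of the 9 members, all except Myc, and numbered 10 because Mxi1 has 3. The E-box CACGTG, which reads the same on both strands, occurred in 3 of the 10 windows, those of Max, Mxd4 and Mnt, and in 7.2% of all 32851 mouse windows of this length. The TCF/LEF motif was searched as CTTTGAT or CTTTGAA on both strands and occurred in 1 of the 10, that of Mycn, and in 8.7% of all windows. Below are the stretches around the matches of Mycn, the member that was lower in pEpiLCs than in either other state, and of Mxd4 and Mnt, 2 antagonists that moved in opposite directions after EpiLC culture. Capitals mark the match, each stretch runs 5′ to 3′ on the strand of the gene, and positions count from the transcription start.
Mycn, chr12:12941837-12941866, minus strand, first base of the match at -14: ataatatcccccgagcTTCAAAGcgcagcc
Mxd4, chr5:34187912-34187941, minus strand, first base of the match at -219: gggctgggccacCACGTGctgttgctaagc
Mnt, chr11:74830789-74830818, plus strand, first base of the match at -123: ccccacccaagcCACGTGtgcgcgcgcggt
The Mycn match is CTTTGAA read from the opposite strand. The E-box of the Max window began at -3 and spanned the start site. Mxd4 and Mnt thus carry the same hexamer at different distances. A match is a description of the sequence and not of binding, which was not measured.

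Libraries held between 20560564 and 23417917 estimated counts. The counts of single members ran from 72 for Mxd1 in EpiLC replicate 2 to 6288 for Mycn in aEpiLC replicate 2, and 3 counts corresponded to 0.130 to 0.143 CPM (counts scaled by library size and TMM factor, the unit of every level given). All members were therefore well above the detection limit and all passed the filter on low counts. Summed posterior markers (T, Mixl1, Eomes and Nanog) reached 726 to 2220 CPM in pEpiLCs against 20.1 to 34.1 CPM elsewhere, and summed anterior markers (Sox1, Pax6 and Sox2) reached 101 to 109 CPM in aEpiLCs, 56.8 to 67.6 CPM in EpiLCs and 11.7 to 34.7 CPM in pEpiLCs. pEpiLC replicate 1 stood apart from its group. It differed by more than 4-fold from replicates 2 and 3 in 323 and 333 genes, against 57 to 76 genes between any other libraries of the same state, and its T level was 1089 CPM, against 204 and 220 CPM. Its Nanog level was lower, at 105 CPM against 248 and 255 CPM. Summed epiblast markers (Pou5f1, Fgf5 and Otx2) lay between 1021 and 1323 CPM in all 9 libraries. The lowest sum was that of pEpiLC replicate 1, where Pou5f1 was at 790 CPM, against 1068 and 1006 CPM in replicates 2 and 3. Pou5f1 made up most of the sum. Fgf5 averaged 85.4, 115 and 168 CPM in EpiLCs, aEpiLCs and pEpiLCs, and Otx2 94.9, 143 and 69.9 CPM. The 6 listed markers of extraembryonic endoderm summed to 66.3 CPM in pEpiLC replicate 1 and to 11.1 to 17.4 CPM in EpiLCs and aEpiLCs. In the other pEpiLC libraries the sum was at least 7.82 CPM and below every EpiLC and aEpiLC library. The high sum was made up mostly of Gata6 (46.6 CPM) and Gata4 (12.4 CPM). Dab2 (5.92 CPM) and Amn (0.811 CPM) in pEpiLC replicate 1 were, as in the other pEpiLC libraries, below every EpiLC and aEpiLC library. Cubn (0.620 CPM) lay within its EpiLC range (0.220 to 0.755 CPM), and Apoa1 was at 0.282 CPM or less in every library. The part of this difference in the members' levels was not tested. Each log2 fold change of a member that involves pEpiLCs is given with and without that library, and family shares, sums and ratios are given with their values or range over the pEpiLC libraries.

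Myc, which encodes c-MYC, was highest in EpiLCs and lowest in aEpiLCs. It measured 53.0, 50.6 and 56.4 CPM in EpiLC replicates 1, 2 and 3, 28.4, 25.3 and 21.1 CPM in aEpiLCs and 52.0, 35.8 and 30.5 CPM in pEpiLCs. All aEpiLC libraries were below all EpiLC libraries, whereas pEpiLC replicate 1 lay within the EpiLC range. From EpiLCs to aEpiLCs Myc fell 2.14-fold, with a log2 fold change of -1.10 ± 0.0971 (SE; edgeR quasi-likelihood test, adjusted p = 1.23e-06). In bulk RNA, a smaller number of expressing cells and less RNA per cell cannot be told apart. Every pEpiLC library was above every aEpiLC library, yet the log2 difference of 0.66 ± 0.206 (SE) did not pass in edgeR's test (adjusted p = 0.0689). It passed in 7 of the 14 alternatives, among them the fit without pEpiLC replicate 1, where the difference was smaller at 0.42 (adjusted p = 0.0340). Against EpiLCs, the pEpiLC value was -0.41 ± 0.181 on the log2 scale in edgeR's test (SE; adjusted p = 0.0995), with -0.66 (adjusted p = 1.11e-05) when pEpiLC replicate 1 was left out. The Myc gene (ENSMUSG00000022346.15) lies on the plus strand at chr15:61985391-61990374 of GRCm38. Pvt1, the long non-coding neighbour of Myc, averaged 6.23 to 6.76 CPM in the 3 states and passed the test in no comparison.

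Mycn, which encodes N-MYC, had its lowest level in pEpiLCs. It measured 228, 219 and 207 CPM in EpiLCs, 219, 283 and 270 CPM in aEpiLCs and 63.2, 127 and 114 CPM in pEpiLCs. No pEpiLC library reached the lowest library of either other state, and pEpiLC replicate 1 was the lowest of all. Mycn was 2.54-fold lower in pEpiLCs than in aEpiLCs (log2 fold change -1.34 ± 0.238, SE; edgeR, adjusted p = 0.0110). Leaving out pEpiLC replicate 1 gave -1.09 (adjusted p = 1.97e-05), and leaving out aEpiLC replicate 2 or 3 ended the call (adjusted p = 0.0568 and 0.0539). Relative to EpiLCs it fell 2.12-fold in pEpiLCs (log2 fold change -1.08 ± 0.223, SE; edgeR, adjusted p = 0.00694) and this passed in all 14 alternatives, with -0.83 when pEpiLC replicate 1 was left out. In aEpiLCs, Mycn was higher than in EpiLCs by 0.24 ± 0.0843 on the log2 scale (SE; edgeR, adjusted p = 0.0308). The libraries of these states overlapped, however, and that call was lost in 5 of 14 alternatives: the fit to all 9 libraries (adjusted p = 0.388) and those without aEpiLC replicate 2 or 3 or EpiLC replicate 2 or 3. The Mycn gene (ENSMUSG00000037169.15) occupies chr12:12936093-12941914 on the minus strand in GENCODE, whose gene model starts before the RefSeq start used for the sequence shown.

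Mycl, which encodes L-MYC, moved opposite to Mycn in pEpiLCs. It measured 32.7, 35.9 and 30.4 CPM in EpiLCs, 34.1, 34.4 and 30.6 CPM in aEpiLCs and 99.9, 71.9 and 58.9 CPM in pEpiLCs. The EpiLC and aEpiLC libraries overlapped fully, and the lowest pEpiLC library lay well above them. Mycl rose 2.33-fold over aEpiLCs (log2 fold change 1.22 ± 0.183, SE; edgeR, adjusted p = 0.00558) and 2.37-fold over EpiLCs (1.24 ± 0.184, adjusted p = 0.00181). Without pEpiLC replicate 1 these values were 0.99 and 1.01, and both calls held in all 14 alternatives. Between aEpiLCs and EpiLCs the log2 difference was 0.00 ± 0.0849 (SE; edgeR, adjusted p = 0.974). The Mycl gene (ENSMUSG00000028654.13) is on the plus strand at chr4:122995652-123002485.

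Max differed little between states. It measured 65.3, 67.7 and 67.6 CPM in EpiLCs, 53.7, 55.6 and 62.4 CPM in aEpiLCs and 70.5, 73.8 and 72.6 CPM in pEpiLCs. The 3 states did not overlap, with aEpiLCs lowest and pEpiLCs highest. Max was higher in pEpiLCs than in aEpiLCs by 0.34 ± 0.0766 on the log2 scale (SE; edgeR, adjusted p = 0.0252) and lower in aEpiLCs than in EpiLCs by a log2 fold change of -0.22 ± 0.0700 (adjusted p = 0.0190). Each of these calls was lost in 4 of 14 alternatives, all of which left out a library: pEpiLC replicate 2 or 3 or aEpiLC replicate 1 or 2 for the former, and aEpiLC replicate 1 or 2 or EpiLC replicate 2 or 3 for the latter. Without pEpiLC replicate 1 the pEpiLC value over aEpiLCs was 0.36 (adjusted p = 0.00714). The pEpiLC value against EpiLCs, 0.14 ± 0.0564 on the log2 scale, did not pass in edgeR's test (SE; adjusted p = 0.0844) and passed without pEpiLC replicate 1 (0.16, adjusted p = 0.0374). Max (ENSMUSG00000059436.13) lies on the minus strand at chr12:76937269-76962201.

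**Figure D1:**
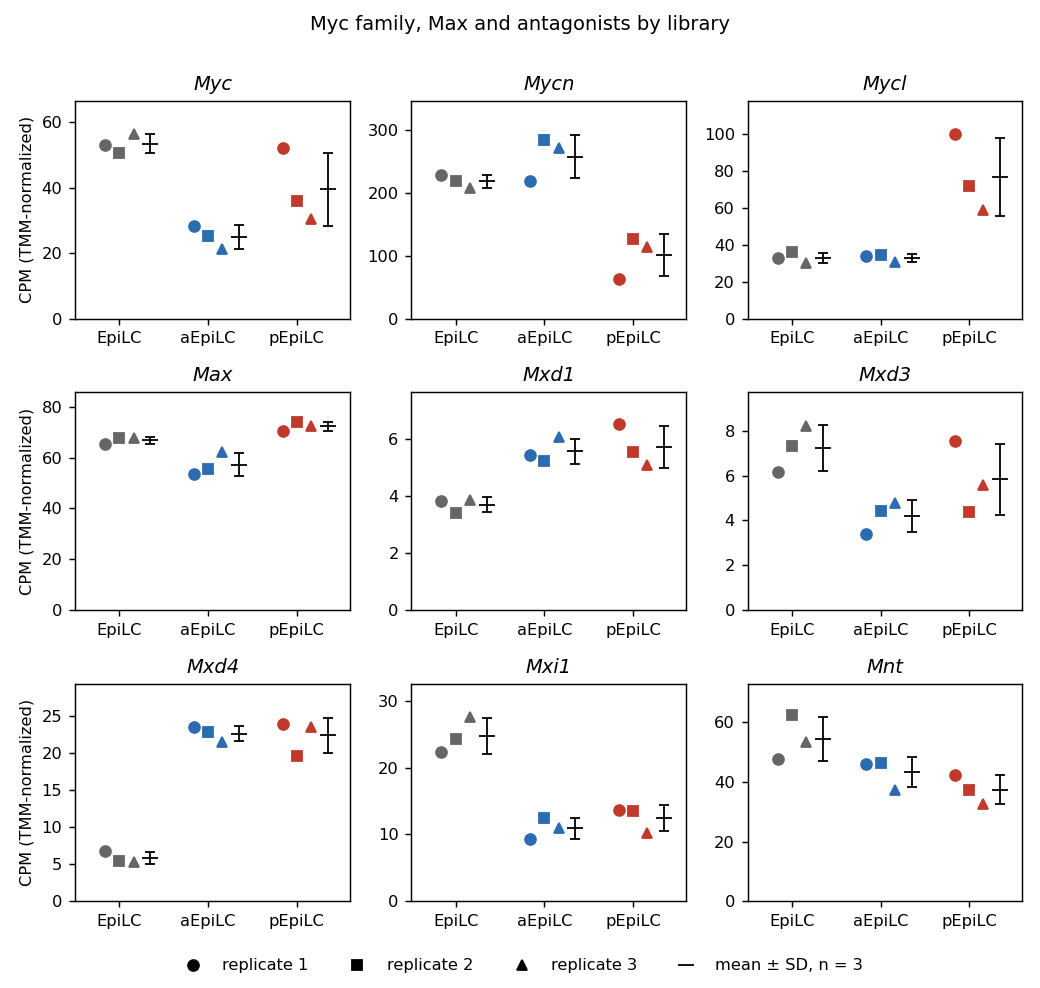
Each panel plots 1 gene, with TMM-normalized CPM on a linear axis from 0 and the 3 states on the x axis. Points are libraries, the shape gives the replicate number, and bars show the mean ± SD (n = 3). In pEpiLCs Mycn lies at 63.2 to 127 CPM and Mycl at 58.9 to 99.9 CPM, and Mxd4 lies at 19.7 to 23.9 CPM in pEpiLCs and 21.5 to 23.5 CPM in aEpiLCs, above 5.28 to 6.81 CPM in EpiLCs.

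Among the antagonists, Mxd4 had the largest difference of any member in the 3 comparisons. It measured 6.81, 5.47 and 5.28 CPM in EpiLCs, 23.5, 22.8 and 21.5 CPM in aEpiLCs and 23.9, 19.7 and 23.5 CPM in pEpiLCs. Each later library held more than every EpiLC library, and aEpiLCs and pEpiLCs overlapped. Mxd4 rose 3.87-fold in aEpiLCs (log2 fold change 1.95 ± 0.123, SE; edgeR, adjusted p = 5.97e-08) and 3.88-fold in pEpiLCs (1.96 ± 0.148, adjusted p = 0.000145), and both calls held in all 14 alternatives, with 1.91 in pEpiLCs without replicate 1. pEpiLCs and aEpiLCs differed by -0.02 ± 0.112 on the log2 scale (SE; edgeR, adjusted p = 0.943), or by -0.06 without pEpiLC replicate 1. Mxd4 (ENSMUSG00000037235.13, chr5:34173883-34187720, minus strand) shares 514 exonic bases with the antisense gene Gm42846, which was listed at no more than 0.657 CPM in any library.

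Mxi1, which encodes the antagonist MXI1 (also called MXD2), moved the other way. It measured 22.4, 24.2 and 27.6 CPM in EpiLCs, 9.39, 12.4 and 10.9 CPM in aEpiLCs and 13.7, 13.4 and 10.2 CPM in pEpiLCs. Both later states lay wholly below EpiLCs and overlapped each other. Mxi1 fell 2.26-fold in aEpiLCs (log2 fold change -1.18 ± 0.123, SE; edgeR, adjusted p = 5.51e-06) and 1.96-fold in pEpiLCs (-0.97 ± 0.145, adjusted p = 0.00187), in all 14 alternatives, and the pEpiLC value was -1.04 without replicate 1. The difference between pEpiLCs and aEpiLCs was 0.19 ± 0.167 (SE; edgeR, adjusted p = 0.489), or 0.12 without pEpiLC replicate 1. Mxi1 (ENSMUSG00000025025.14) lies on the plus strand at chr19:53310518-53375810 and shares 194 exonic bases with Gm10197 on the opposite strand, which is not analysed here.

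Mnt, which encodes the most broadly expressed antagonist, was highest in EpiLCs. It measured 47.5, 62.2 and 53.1 CPM in EpiLCs, 46.0, 46.2 and 37.3 CPM in aEpiLCs and 42.3, 37.3 and 32.4 CPM in pEpiLCs. EpiLC replicate 1, the lowest of its state, was only slightly above the highest aEpiLC library, so the groups were separated by a narrow gap. The log2 fold change was -0.33 ± 0.104 in aEpiLCs (SE; edgeR, adjusted p = 0.0197) and -0.52 ± 0.131 in pEpiLCs (adjusted p = 0.0157), the latter -0.61 without pEpiLC replicate 1. Without EpiLC replicate 2, the highest library, both calls were lost (-0.22, adjusted p = 0.116, and -0.41, adjusted p = 0.0613), and the aEpiLC call was also lost without aEpiLC replicate 3 and in the fit to all 9 libraries (adjusted p = 0.0682 and 0.0719). pEpiLCs and aEpiLCs overlapped, with a log2 difference of -0.21 ± 0.130 (SE; edgeR, adjusted p = 0.315), or -0.30 without pEpiLC replicate 1. Mnt (ENSMUSG00000000282.12) lies at chr11:74830920-74845725 on the plus strand.

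Mxd1, which encodes the founding MAD protein and is known to be induced in differentiating cells, was among the least abundant members. It measured 3.83, 3.40 and 3.87 CPM in EpiLCs, 5.45, 5.22 and 6.07 CPM in aEpiLCs and 6.54, 5.57 and 5.11 CPM in pEpiLCs. Both later states were above EpiLCs in every library. Mxd1 rose by 0.59 ± 0.162 on the log2 scale in aEpiLCs (SE; edgeR, adjusted p = 0.00857), in all 14 alternatives. The rise in pEpiLCs was 0.65 ± 0.171 (SE; edgeR, adjusted p = 0.0174), with 0.55 (adjusted p = 0.0160) without pEpiLC replicate 1. It did not pass when any EpiLC library was left out (adjusted p = 0.0512, 0.0698 and 0.0538 for replicates 1, 2 and 3). Between pEpiLCs and aEpiLCs the log2 difference was 0.04 ± 0.165 (SE; edgeR, adjusted p = 0.899), or -0.06 without pEpiLC replicate 1. Mxd1 (ENSMUSG00000001156.9) lies at chr6:86647042-86669161 on the minus strand.

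Mxd3, an antagonist known for its expression in proliferating progenitors, was lower in aEpiLCs. It measured 6.16, 7.31 and 8.22 CPM in EpiLCs, 3.38, 4.41 and 4.79 CPM in aEpiLCs and 7.54, 4.39 and 5.57 CPM in pEpiLCs. aEpiLCs lay below EpiLCs in every library, whereas pEpiLC replicate 1 reached into the EpiLC range. The log2 fold change in aEpiLCs was -0.78 ± 0.176 (SE; edgeR, adjusted p = 0.00255), and this held in all 14 alternatives. In pEpiLCs it was -0.29 ± 0.226 (SE; edgeR, adjusted p = 0.332), and -0.52 (adjusted p = 0.0240) without pEpiLC replicate 1. pEpiLCs and aEpiLCs differed by 0.48 ± 0.246 (SE; edgeR, adjusted p = 0.233), or 0.25 without pEpiLC replicate 1. Mxd3 (ENSMUSG00000021485.14, chr13:55325168-55329823, minus strand) shares 105 exonic bases with Prelid1 on the opposite strand, which averaged 228 to 263 CPM, and whether the libraries were stranded is not given in the sources used here, so that reads of the shared stretch cannot be assigned with certainty.

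**Figure D2:**
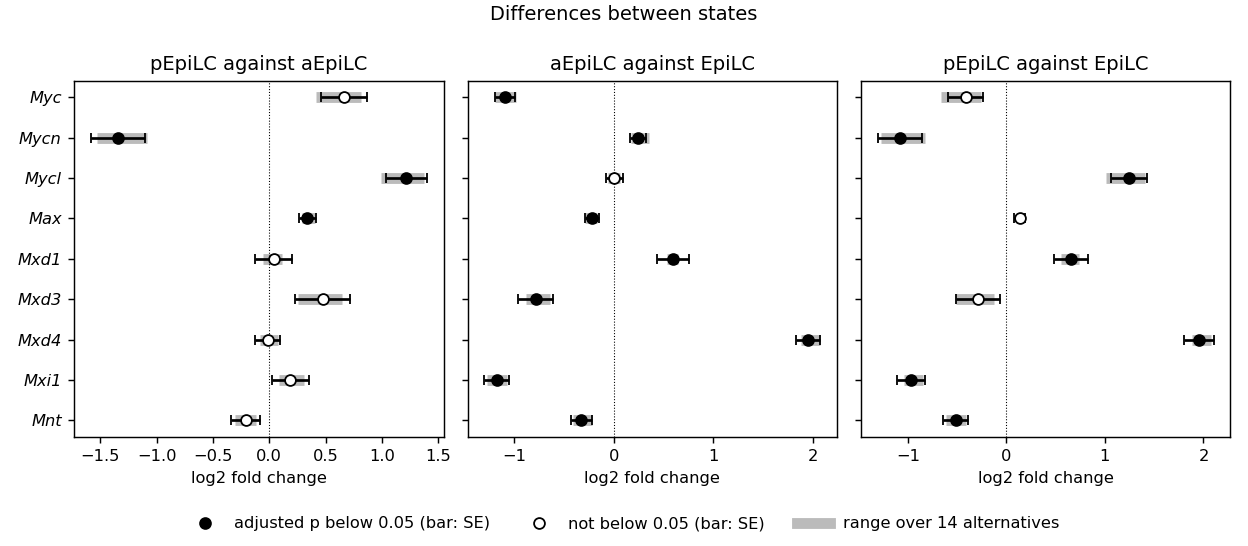
The 3 panels plot the log2 fold change of each member for pEpiLC against aEpiLC, aEpiLC against EpiLC and pEpiLC against EpiLC, each on its own linear x axis. Filled points have an adjusted p below 0.05, thin bars give the SE and grey bands the range over 14 alternatives. Mycn (-1.34) and Mycl (1.22) stand on opposite sides for pEpiLC against aEpiLC, where the antagonists lie between -0.21 and 0.48, and Mxd4 lies at 1.95 and 1.96 against EpiLCs.

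The comparison of pEpiLCs with aEpiLCs asks how the posterior and anterior conditions differ after equal time in culture. Of the 9 members, 2 were higher (Mycl and Max) and 1 was lower (Mycn), beside 6.28% and 9.30% of the 15198 genes tested. With a limit of 2-fold, 1 was higher (Mycl) and 1 lower (Mycn), beside 2.55% and 4.74% of genes. Both counts changed when a library was left out. Without pEpiLC replicate 1, Mycl still passed but was just under the limit (0.99 on the log2 scale). That left 0 higher and 1 lower, beside 2.51% and 4.90% of genes. Mycn did not pass without aEpiLC replicate 2 or 3, although its log2 fold change stayed past the limit (-1.27 and -1.31). None of the 5 antagonists passed, in edgeR's test, in DESeq2, in limma voom or in any other of the 14 alternatives, and 0 of 5 had an unadjusted p below 0.05 in edgeR. The median log2 fold change of the members was 0.19, against 0.01 over all genes.

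The comparisons with EpiLCs ask what each condition changed relative to the starting cells. Both share the EpiLC libraries, and the further 24 h of culture cannot be told apart from the change of medium. In aEpiLCs, 3 of 9 members were higher (Mycn, Mxd1 and Mxd4) and 5 lower (Myc, Max, Mxd3, Mxi1 and Mnt), where 24.0% and 22.6% of 15301 genes passed in these directions. With the 2-fold limit, 1 was higher (Mxd4) and 2 lower (Myc and Mxi1), beside 7.25% and 5.24% of genes, and Myc was under the limit without aEpiLC replicate 3. In pEpiLCs, 3 were higher (Mycl, Mxd1 and Mxd4) and 3 lower (Mycn, Mxi1 and Mnt), where 22.8% and 21.4% of 15288 genes passed. With the 2-fold limit, 2 were higher (Mycl and Mxd4) and 1 lower (Mycn), beside 7.71% and 8.13% of genes. Without pEpiLC replicate 1 the lower member was Mxi1 (-1.04) in place of Mycn (-0.83) and the higher ones were again Mycl and Mxd4, beside 8.33% and 7.05% of genes, and without pEpiLC replicate 2 or EpiLC replicate 1 both were past the limit. With no fold limit, the counts in pEpiLCs without pEpiLC replicate 1 were 4 higher and 5 lower, with Max added to the former and Myc and Mxd3 to the latter, and the shares of all 15699 genes tested were then also larger at 26.6% and 26.0%. The median of the members was -0.22 in aEpiLCs and -0.29 in pEpiLCs on the log2 scale, against 0.00 and 0.02 over all genes.

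To compare levels between genes, CPM were divided by the length of all annotated exons in kb. In EpiLCs the order began with Mycn at 66.2 ± 3.19 CPM per kb (SD, n = 3), followed by Myc at 19.6 ± 1.07, Max at 18.6 ± 0.381, Mnt at 11.7 ± 1.60 and Mycl at 8.18 ± 0.691. Mxi1 (3.62 ± 0.388), Mxd3 (3.05 ± 0.436), Mxd4 (0.690 ± 0.0987) and Mxd1 (0.523 ± 0.0370) completed it. Among neighbours in this order, Myc and Max overlapped between libraries, as did Mxi1 and Mxd3. With the longest annotated transcript as the length, Max in EpiLCs was second at 34.4 ± 0.706 CPM per kb and no longer overlapped Myc at 22.8 ± 1.24 (SD, n = 3). In aEpiLCs, Mycn at 78.1 ± 10.3 CPM per kb (SD, n = 3) was again first and Max at 15.9 ± 1.26 was second, while Mnt (9.34 ± 1.10), Myc (9.18 ± 1.35) and Mycl (8.18 ± 0.516) overlapped one with the next. Mxd4 at 2.66 ± 0.122 CPM per kb then stood above Mxd3 (1.77 ± 0.307) and Mxi1 (1.60 ± 0.222), which overlapped, and Mxd1 was last at 0.789 ± 0.0624. In pEpiLCs the top of the order could not be separated, because Mycn (30.8 ± 10.2 CPM per kb), Max (20.1 ± 0.470) and Mycl (19.0 ± 5.20) overlapped one with the next, and Mycl overlapped Myc (14.5 ± 4.12). Mnt followed at 8.07 ± 1.07 CPM per kb, then Mxd4 (2.64 ± 0.277), Mxd3 (2.46 ± 0.672) and Mxi1 (1.82 ± 0.282), each overlapping the next, and Mxd1 at 0.811 ± 0.103. In pEpiLC replicate 1, Mycl (24.8 CPM per kb) was above both Max (19.6) and Mycn (19.2). With the longest transcript as the length, Max in pEpiLCs (36.3 to 38.0 CPM per kb) no longer overlapped Mycl (16.8 to 28.5). Mxd4 was below Mxd3 and Mxi1 in every EpiLC library and above both in every aEpiLC library. Although their ranges overlapped, Mxi1 was above Mxd3 in every EpiLC library and Mycl above Myc in every pEpiLC library. In every aEpiLC library, Mxd3 was likewise above Mxi1 and Myc above Mycl.

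The make-up of the Myc family pool followed from these levels. Mycn held 70.4% ± 1.29 (SD, n = 3) of the summed CPM per kb of Myc, Mycn and Mycl in EpiLCs, 81.6% ± 3.37 in aEpiLCs and 47.7% ± 15.0 in pEpiLCs. The Mycn share was 30.4% in pEpiLC replicate 1 and 55.4% and 57.3% in replicates 2 and 3, all below the lowest EpiLC library. Myc held 20.9% ± 1.63, 9.73% ± 2.24 and 22.6% ± 6.68 in EpiLCs, aEpiLCs and pEpiLCs. Its share was 30.3% in pEpiLC replicate 1, above all EpiLC libraries (19.8% to 22.8%), and 19.0% and 18.6% in replicates 2 and 3, below all of them, so that the order of the means against EpiLCs rests on replicate 1. Mycl held 8.70% ± 0.661, 8.63% ± 1.12 and 29.7% ± 8.33 in the same order, with 39.2%, 25.6% and 24.1% in the pEpiLC libraries. The sum of the 3 genes was 94.0 ± 2.84 CPM per kb in EpiLCs, 95.5 ± 9.37 in aEpiLCs and 64.3 ± 4.70 in pEpiLCs (SD, n = 3), and the pEpiLC libraries (60.4 to 69.6) did not overlap those of the other states. These shares and sums describe transcripts, not proteins, and were not tested.

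**Figure D3:**
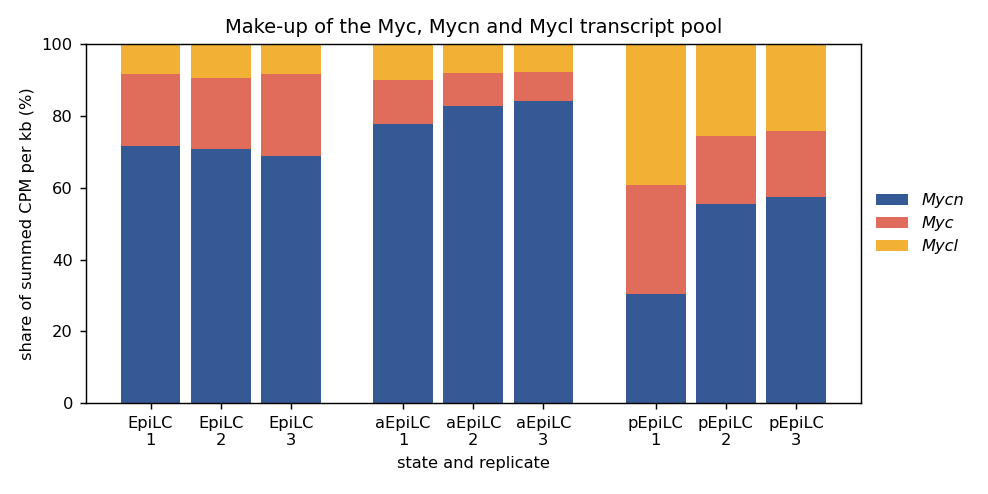
Each bar is 1 library and shows the share, in percent, of the summed CPM per kb of Myc, Mycn and Mycl held by each gene, on a linear axis from 0 to 100. The Mycn share is 69.0% to 71.5% in EpiLCs, 77.8% to 84.2% in aEpiLCs and 30.4% to 57.3% in pEpiLCs, where the Mycl share is 24.1% to 39.2%.

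Relative to this pool, the 5 antagonists together summed to 19.6 ± 1.92 CPM per kb in EpiLCs, 16.2 ± 1.02 in aEpiLCs and 15.8 ± 2.00 in pEpiLCs (SD, n = 3), with 18.1, 15.0 and 14.3 in the pEpiLC libraries. The ratio of the antagonist sum to the Myc family sum was 0.209 ± 0.0247, 0.170 ± 0.0187 and 0.246 ± 0.0364. The pEpiLC ratios (0.215 to 0.287) lay above the aEpiLC ratios (0.155 to 0.191), and the EpiLC ratios (0.181 to 0.225) overlapped both. When the longest annotated transcript was the length, the pEpiLC ratios (0.225 to 0.307) no longer overlapped the EpiLC ratios (0.176 to 0.215). The ratio of Max to the Myc family sum was 0.198 ± 0.00951 in EpiLCs, 0.167 ± 0.0160 in aEpiLCs and 0.313 ± 0.0195 in pEpiLCs. All pEpiLC libraries (0.295 to 0.334) were above the rest (0.149 to 0.206). With the longest annotated transcript as the length, the Max ratios became 0.303, 0.254 and 0.486, in the same order of states.

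Other genes of the network were examined in lists, whose counts are descriptions beside the shares of all genes given above. Each pEpiLC call of a list gene named with its fold change below kept its direction and passed without pEpiLC replicate 1, an alternative chosen after the data were seen. Of 4 genes for further partners in the MAX and MLX network, Mlxip, which encodes the glucose sensor MondoA, was higher and Mga, which encodes a MAX partner that represses germline genes, was lower than in EpiLCs in both later states. Mlxip averaged 45.9 ± 4.09 CPM in EpiLCs, 57.6 ± 3.64 in aEpiLCs and 68.8 ± 10.2 in pEpiLCs (SD, n = 3), with log2 fold changes of 0.33 (edgeR, adjusted p = 0.00381) and 0.61 (adjusted p = 0.00551). Mga averaged 335 ± 17.5, 280 ± 38.3 and 261 ± 13.0 CPM, with log2 fold changes of -0.26 (edgeR, adjusted p = 0.0245) and -0.33 (adjusted p = 0.00456). Between pEpiLCs and aEpiLCs 0 of 4 passed in edgeR and DESeq2, 1 passed in limma voom and 1, Mlx, was higher in edgeR without pEpiLC replicate 1, and 1 had an unadjusted p below 0.05 in edgeR (Mlxipl, like Mlx named after its value was seen).

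Of 9 genes for cofactors of MYC, 2 were lower and none higher in each comparison with EpiLCs, namely Ruvbl1 and Ruvbl2, which encode partner ATPases of chromatin-remodelling complexes. With 22.6% and 21.4% of all genes lower in these comparisons, this count is near the background, and without pEpiLC replicate 1 it was 3 in pEpiLCs, beside 26.0%. Ruvbl2 had a log2 fold change of -0.56 ± 0.0636 in aEpiLCs (SE; edgeR, adjusted p = 1.08e-05) and -0.41 ± 0.0607 in pEpiLCs (adjusted p = 0.00182). Ruvbl1 had -0.39 and -0.27 (edgeR, adjusted p = 0.000293 and 0.0182). Of 6 genes for corepressors of MXD and MNT, Sin3b was lower in aEpiLCs than in EpiLCs, with a log2 fold change of -0.47 ± 0.0851 (SE; edgeR, adjusted p = 0.000525), and no other gene of the 6 passed in edgeR. In pEpiLCs Sin3b was at -0.29 ± 0.102 relative to EpiLCs (SE; edgeR, adjusted p = 0.0501), just outside the threshold, and it passed in 9 of 14 alternatives, among them DESeq2, limma voom and the fit without pEpiLC replicate 1 (-0.19, adjusted p = 0.0303). Between pEpiLCs and aEpiLCs no gene of either list passed in edgeR or limma voom. An unadjusted p below 0.05 in edgeR was reached by 1 of the 9 cofactor genes (Wdr5) and 1 of the 6 corepressor genes (Sap30, also the 1 that passed in DESeq2), both named after their values were seen.

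Of 10 genes that act on the stability of MYC proteins, Usp28, which encodes a deubiquitinase that stabilises MYC, was lower in pEpiLCs than in both other states. It averaged 109 ± 7.29 CPM in EpiLCs, 94.1 ± 6.31 in aEpiLCs and 54.1 ± 2.10 in pEpiLCs (SD, n = 3). Its log2 fold change was -0.80 ± 0.0753 for pEpiLCs against aEpiLCs (SE; edgeR, adjusted p = 0.000762), -0.99 ± 0.0700 for pEpiLCs against EpiLCs (adjusted p = 0.000116) and -0.21 ± 0.0707 for aEpiLCs against EpiLCs (adjusted p = 0.0240). Skp2, which encodes a ubiquitin ligase subunit that targets MYC, was higher in pEpiLCs by 0.32 over aEpiLCs and 0.23 over EpiLCs on the log2 scale (edgeR, adjusted p = 0.0177 and 0.0402). In aEpiLCs relative to EpiLCs, 2 of the 10 were higher and 3 lower. The higher ones were Fbxw7 (0.28, adjusted p = 0.0109), which encodes another ligase subunit for MYC, and Gsk3b (0.26, adjusted p = 0.0195), which encodes the kinase that marks MYC for it, both by edgeR. The kinase GSK3 is also the target of CHIR99021, and Gsk3b transcripts were likewise higher in pEpiLCs than in EpiLCs (log2 fold change 0.48 ± 0.104, SE; edgeR, adjusted p = 0.00852).

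Genes that MYC is known to induce were mostly lower in both later states than in EpiLCs. Of 20 such genes, 13 were lower and 1 was higher in aEpiLCs, with a list median of -0.26 on the log2 scale, and 11 were lower and 1 higher in pEpiLCs, with a median of -0.22. Shmt2, which encodes a mitochondrial enzyme of serine and one-carbon metabolism, averaged 344 ± 21.3 CPM in EpiLCs, 146 ± 22.9 in aEpiLCs and 179 ± 12.4 in pEpiLCs (SD, n = 3). Its log2 fold changes were -1.23 ± 0.0958 (SE; edgeR, adjusted p = 3.58e-07) and -0.92 ± 0.0726 (adjusted p = 0.00016). Srm, which encodes spermidine synthase, averaged 235 ± 14.4, 129.5 ± 9.64 and 147 ± 11.7 CPM, with log2 fold changes of -0.86 and -0.65 (edgeR, adjusted p = 5.29e-07 and 0.000717). Tfrc, which encodes the transferrin receptor, had -0.71 and -0.64 (edgeR, adjusted p = 0.00018 and 0.0144). Without pEpiLC replicate 1, 12 of the 20 were lower and 2 higher in pEpiLCs (Ccnd2 and Nme1). These counts stand beside 22.6% and 21.4% of all genes that were lower in aEpiLCs and pEpiLCs, and 26.0% in pEpiLCs without replicate 1. Of 6 naive pluripotency markers, Zfp42 and Nr0b1 were lower in both later states, and Esrrb was lower in aEpiLCs only. In pEpiLCs Esrrb (log2 fold change 0.44) and Tbx3 (1.38) were above EpiLCs and Klf4 (-0.35) and Tfcp2l1 (-0.10) below, without passing. Zfp42 alone averaged 19.1 CPM in EpiLCs. The 6 summed to 35.2 to 37.9 CPM in EpiLCs, 17.1 to 17.7 CPM in aEpiLCs and 22.8 to 27.3 CPM in pEpiLCs. The 6 of 8 feeder fibroblast markers found by symbol summed to 22.2 to 24.3, 22.3 to 24.9 and 16.5 to 29.97 CPM in the same order, although Dcn was lower (log2 fold changes -1.89 and -4.64) and Col1a2 higher (0.78 and 2.03) in both later states. The part of either in the lower levels of MYC-induced genes was not tested.

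Ccnd2, which encodes cyclin D2, was the gene of that list that was higher in both later states. It averaged 4.10 ± 0.358 CPM in EpiLCs, 6.56 ± 0.615 in aEpiLCs and 29.8 ± 4.94 in pEpiLCs (SD, n = 3). The log2 fold change was 2.18 ± 0.155 between pEpiLCs and aEpiLCs (SE; edgeR, adjusted p = 0.000267), 2.88 ± 0.159 between pEpiLCs and EpiLCs (adjusted p = 4.04e-05) and 0.68 ± 0.157 between aEpiLCs and EpiLCs (adjusted p = 0.00311). It was the only gene of the 20 to pass between pEpiLCs and aEpiLCs, where the list median was 0.03. Ccnd2 shares exonic bases with 2 antisense genes, and Mlxip, Ruvbl2, Shmt2, Cdkn1a, Ndrg1 and Gadd45a each share some with a gene on the opposite strand, so the limit on strand given for Mxd3 holds for them.

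Of 6 genes that MYC is known to repress, Cdkn1a, which encodes the cell cycle inhibitor p21, was higher in both later states. It averaged 36.4 ± 4.68 CPM in EpiLCs, 45.2 ± 1.03 in aEpiLCs and 119 ± 17.7 in pEpiLCs (SD, n = 3), and its log2 fold change over EpiLCs was 0.32 in aEpiLCs and 1.74 in pEpiLCs (edgeR, adjusted p = 0.00984 and 0.000151). Ndrg1, a stress and hypoxia-responsive gene, was higher in pEpiLCs than in both other states, at 34.0 ± 9.21 CPM against 4.69 ± 0.0921 in aEpiLCs and 5.90 ± 2.27 in EpiLCs (log2 fold changes 2.86 and 2.54; edgeR, adjusted p = 0.000334 and 0.000823). Cdkn1b, which encodes p27, was higher in aEpiLCs than in EpiLCs (0.41, edgeR, adjusted p = 0.00153). Gadd45a, a DNA damage-responsive gene, was lower in pEpiLCs, with log2 fold changes of -0.70 against aEpiLCs and -0.88 against EpiLCs (edgeR, adjusted p = 0.0403 and 0.00985). Between pEpiLCs and aEpiLCs, 2 of the 6 were thus higher (Cdkn1a by 1.40 on the log2 scale; edgeR, adjusted p = 0.000361) and 1 lower, or 2 higher and 2 lower without pEpiLC replicate 1, where 8.81% and 12.8% of all genes passed.

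**Figure D4:**
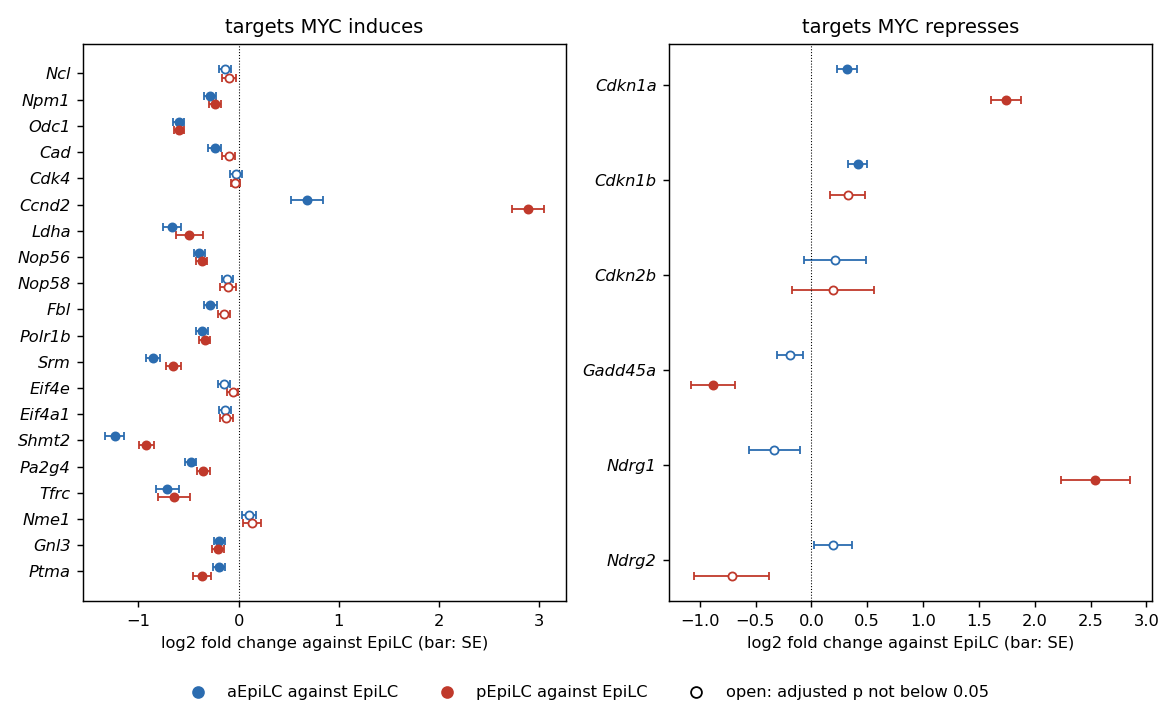
Points give the log2 fold change of aEpiLCs (blue) and pEpiLCs (red) against EpiLCs for 20 genes that MYC is known to induce (left) and 6 that it is known to repress (right), with bars for the SE. Open points did not pass. Most induced genes lie left of 0, with 13 lower in aEpiLCs and 11 in pEpiLCs, and Ccnd2 lies at 0.68 and 2.88.

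The genes whose pattern over the 9 libraries was most like that of a Myc family gene were sought among 10730 genes with a mean of at least 5 CPM, by the root mean square difference of centred log2 CPM. For Myc these were Unc5b (0.0958), Tns3 (0.102) and Xylb (0.125), beside a spread of Myc itself of 0.500. Unc5b, a netrin receptor gene, averaged 161 CPM in EpiLCs, 74.6 CPM in aEpiLCs and 117 CPM in pEpiLCs. For Mycn they were Plekhg5 (0.0967), Ajuba (0.126) and Mettl7a1 (0.141), beside a spread of 0.670. Ajuba, which encodes a LIM-domain scaffold protein, averaged 268, 300 and 139 CPM in EpiLCs, aEpiLCs and pEpiLCs. For Mycl they were B4galt5 (0.130), Msl1 (0.138) and Echdc2 (0.138), beside a spread of 0.592. B4galt5, a galactosyltransferase gene, averaged 18.9, 18.7 and 40.5 CPM. These values describe likeness in the same libraries and were not tested.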

How the data were processed

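The deposited table holds expected counts per gene symbol, which the authors estimated with RSEM 1.3.1 after mapping to GRCm38 with STAR 2.7.9a. The gene annotation and strandedness are not given in the sources used here. Expected counts were rounded. Only the 6 libraries compared entered each fit, made in R 4.3.3 with edgeR 4.0.16 (TMM, filterByExpr, glmQLFit and glmQLFTest), with Benjamini-Hochberg adjustment over all genes tested, and a gene passed at an adjusted p below 0.05. The SE is the absolute log2 fold change over the root of F. Alternatives used limma 3.58.1 and DESeq2 1.42.0, RLE factors, other filters, all libraries, a replicate block and each library left out. Exon lengths and positions came from GENCODE on GRCm38, where 97.2% of symbols matched a gene. From each list, up to 4 genes with the largest change among those that passed were named. Members and lists were chosen with earlier results of these data known.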

Additional observations from a re-analysis of the deposited data

How the results depend on the processing

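Of 378 values of single members under the alternatives, 331 kept their direction and their side of the threshold, 22 no longer passed, 14 newly passed and 11 changed sign, all of the last for differences that did not pass. These were Mxd1 in pEpiLCs against aEpiLCs (-0.026 with limma voom, -0.0581 to 0.114 with a library left out), Mxd4 in the same comparison (-0.061 to 0.0745 with a library left out) and Mycl in aEpiLCs against EpiLCs (-0.0028 with RLE factors, -0.0029 with DESeq2, -0.0547 to 0.0659 with a library left out). With a library left out, the members higher in pEpiLCs than in aEpiLCs numbered 1 to 3 (1 without pEpiLC replicate 2 or aEpiLC replicate 1 or 2) and those lower 0 to 1 (0 without aEpiLC replicate 2 or 3). The members lower than EpiLCs then numbered 3 to 5 in aEpiLCs (3 without EpiLC replicate 2) and 2 to 5 in pEpiLCs (5 without pEpiLC replicate 1), and limma voom gave 5 in pEpiLCs. The 2-fold limit gave 1 higher in pEpiLCs than in aEpiLCs, 1 higher and 2 lower in aEpiLCs than in EpiLCs, and 1 lower in pEpiLCs than in EpiLCs. The longest transcript as the length gave ratios of Max to the Myc family of 0.303, 0.254 and 0.486 in EpiLCs, aEpiLCs and pEpiLCs. That alternative, the MYC-induced and other list genes with a library left out, and the alternatives for Sin3b and for the members past the 2-fold limit were chosen after the data were seen. The cause of these differences was not tested.

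Of all genes, 955 were higher and 1414 lower in pEpiLCs than in aEpiLCs. These became 1474 and 2137 with limma voom, 1465 and 1969 in the fit to all 9 libraries, and 278 to 1365 and 496 to 1975 with a library left out, fewest without aEpiLC replicate 2. With the 2-fold limit, 387 and 721 became 180 to 419 and 334 to 759 with a library left out. At a minimum of 10 counts in every library, the genes lower than EpiLCs by that limit numbered 488 in place of 802 in aEpiLCs and 801 in place of 1243 in pEpiLCs. Pairing of the libraries by replicate number was not established, since not every correlation between same-numbered libraries was above 0.1: deviations of same-numbered libraries correlated at 0.172, 0.117 and 0.0622 between pEpiLCs and aEpiLCs, at -0.0601 to 0.0211 between aEpiLCs and EpiLCs and at 0.0153 to 0.0338 between pEpiLCs and EpiLCs. With the replicate block, 990 genes were higher and 1474 lower in pEpiLCs than in aEpiLCs, Myc passed there (log2 fold change 0.64, adjusted p = 0.0156, edgeR), and no other call of a member changed. Every pEpiLC and aEpiLC library correlated best with its own number in that comparison, a hint from the data and not from the design. Mxd1 (72 to 137 counts per library) and Mxd3 (72 to 187) rested on the fewest counts.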
